A study of Mus musculus with 12 samples.

Results

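The lysosome is described here through 47 genes for its hydrolases, its membrane proteins and its proton pump, measured in the whole ovary of mice that lack the kinase Mtor in oocytes. The members were chosen by name, as the rows of the deposited table whose symbol is on a list of lysosomal genes, and all 47 were found among the 24255 genes of the table. RNA of whole ovaries was enriched for polyadenylated transcripts and sequenced. The mutant ovaries (CKO, n = 5 libraries) carry the conditional knockout of Mtor through Gdf9-Cre, and wild-type ovaries (WT, n = 7 libraries) are their controls. All mice, of both genotypes, were C57BL/6, 6 months old and primed for 46 h with equine chorionic gonadotropin (eCG, 5 IU), which makes follicles grow. The Gdf9 promoter is active in oocytes, so the labelled deletion is in oocytes while the RNA comes from every cell of the organ. The labels do not say which animal gave which library, so the tests rest on the spread among libraries, which may be technical in part.

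Values are FPKM, fragments scaled to transcript length and to the mapped fragments of the library, as the authors computed them. Each library had 14945 to 16083 genes above 0, and relative depth, read from the steps of low values, spanned a 2.18-fold range. Mtor RNA of the whole ovary was 5.02 ± 0.499 FPKM in CKO and 4.70 ± 0.702 FPKM in WT (SD, n = 5 and 7), with a log2 fold change 0.08, SE 0.12, adjusted p = 0.709, limma. The deletion in oocytes was not detectable in these values, which sum the whole gene, and the labels do not say which part of it is deleted. Some libraries stood apart. CKO replicates 1 and 5 had the highest summed levels of a list of 16 macrophage markers, 2049 and 1850.0 FPKM, where the other CKO libraries had 968 to 1313 FPKM. They also had the highest sums of 5 red blood cell genes, 276 and 316 FPKM, where the other CKO libraries had 12.96 to 63.6 FPKM and WT libraries 19.4 to 248 FPKM. CKO replicates 2 and 3 held Ovgp1, a secreted protein of the oviduct, at 252 and 81.9 FPKM, where all other libraries were at or below 1.87 FPKM. Counts of members are therefore also given without each of these pairs.

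Lysosomes are acidic compartments in which hydrolases break down proteins, glycans and lipids delivered by endocytosis, phagocytosis and autophagy. The acid comes from the V-ATPase, a rotary proton pump with a cytosolic V1 sector and a membrane V0 sector. The kinase complex mTORC1 assembles on the lysosomal surface and phosphorylates the transcription factors TFEB and TFE3, which bind short promoter elements with the core CACGTG in many lysosomal genes. Phagocytes, such as the macrophages that clear degenerating follicles and corpora lutea, are especially rich in lysosomes.

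Many lysosomal transcripts were higher in CKO ovaries. With all libraries the proteases held the highest share, 83.3%. Glycosidases and sulfatases held the lowest, 14.3%, near the share of all genes tested. Without CKO replicates 1 and 5 the proton pump (V-ATPase) held 0 of 6 by limma. All 6 of its estimates stayed above 0, with a median log2 fold change of 0.33, against 0.38 with all libraries. Of the 47 members, 23 were higher in CKO at an adjusted p under 0.05 and 0 were lower (limma on log2(FPKM + 1), Benjamini-Hochberg adjustment over all 13168 genes tested). That is 48.9% of the members, where 8.7% of all genes tested were higher and 7.59% lower. All members passed the filter of at least 1 FPKM in at least 5 libraries, and none was at 0 in any library. At an unadjusted p under 0.05, 28 members were higher and 1, Galc, was lower, where 15.5% of all genes tested were higher and 14.7% lower. The median log2 fold change of the members was 0.43, and that of all genes tested -0.01. Estimates were above 0 for 40 members and below 0 for 7, while 49.3% of all genes tested lay above 0. In 13 members every CKO library lay above every WT library, and in none below, where 4.09% of all genes tested lay wholly above and 3.65% wholly below. Of the called members, 7 changed by at least 1 on the log2 scale, 13 by 0.5 to 1 and 3 by less than 0.5.

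Together the members made up 1.35% to 1.69% of all FPKM in CKO libraries and 0.908% to 1.13% in WT libraries. Their summed level was 5609 to 8176 FPKM in CKO and 3587 to 5122 FPKM in WT, and the groups did not overlap. A few abundant genes weigh heavily in this sum, which averaged 6893 FPKM in CKO and 4335 FPKM in WT. Psap, Ctsd and Ctsb had means of 1302, 1215 and 600 FPKM in CKO and 606, 471 and 259 FPKM in WT. Among the abundant members, Psap ranked between 20 and 29 by FPKM among all genes of a CKO library and between 37 and 74 of a WT library. Ctsd ranked between 20 and 46 in CKO and between 65 and 89 in WT, and Ctsb between 46 and 93 in CKO and between 160 and 234 in WT. In bulk tissue, more cells of a lysosome-rich type and more RNA per cell cannot be told apart.

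Many macrophage markers were also higher in CKO. Of 16 macrophage markers, 11 were higher in CKO and 0 lower, with a summed level of 968 to 2049 FPKM in CKO and 358 to 1292 FPKM in WT, the highest WT value in replicate 6. Adgre1, Cd163, Tyrobp, Aif1 and Cx3cr1 were not called, and Aif1 was at 0 in 1 WT library. The part of macrophages in the lysosomal result was not tested. Without CKO replicates 1 and 5, 19 members were higher and 0 lower, where 5.33% of all genes tested were higher and 5.11% lower. Of these, 17 were also called with all libraries, and Ids and Arsb were called only there. In the same comparison 4 of the 16 macrophage markers were higher, and the estimates of all 16 stayed above 0. Their median log2 fold change was 0.79 there and 1.09 with all libraries, where that of the members was 0.36 and 0.43. Fewer CKO libraries also leave fewer genes called, so counts of calls alone do not compare the lists. Without CKO replicates 2 and 3, 20 members were higher and 0 lower, where 7.15% of all genes tested were higher and 5.42% lower. In that comparison 12 of the 16 macrophage markers were higher.

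**Figure D1:**
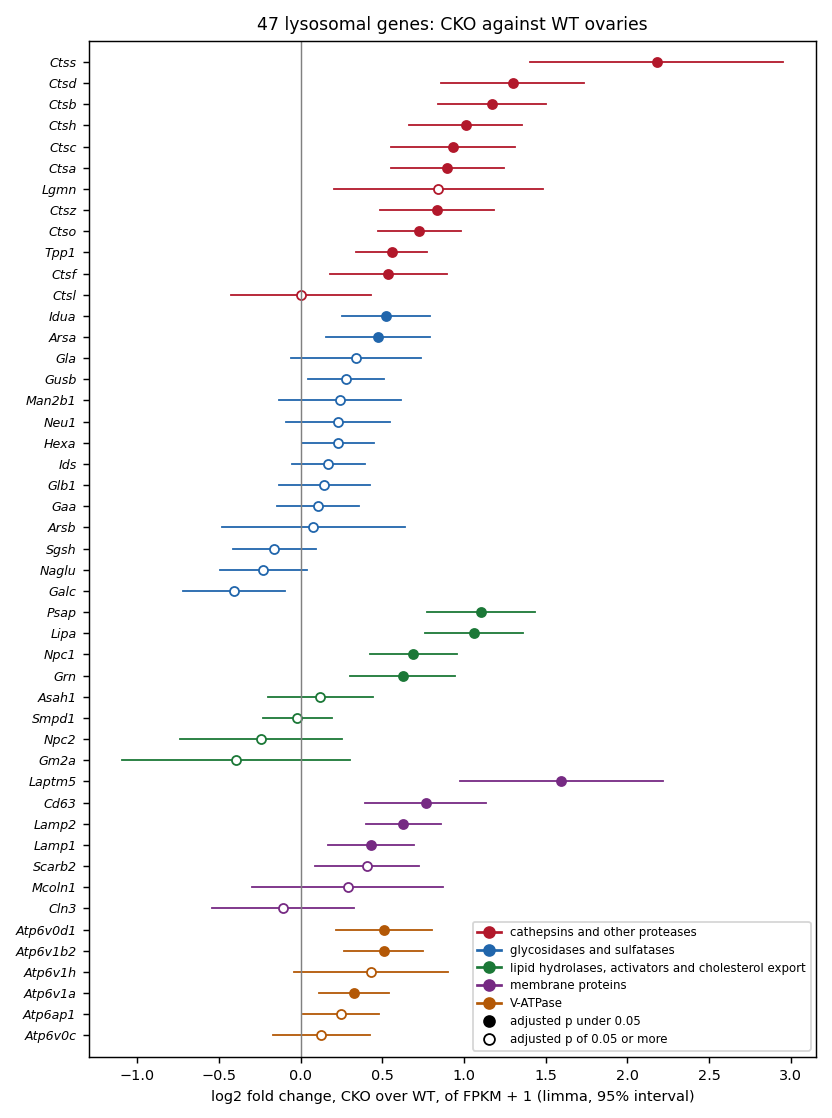
Log2 fold change of each of the 47 members, CKO over WT, on the log2(FPKM + 1) scale, with 95% intervals from limma, coloured by role and ordered by size within a role. Filled points have an adjusted p under 0.05. All 23 filled points lie to the right of 0, from 0.33 for Atp6v1a to 2.18 for Ctss, and 10 of the 12 proteases are filled, against 2 of the 14 glycosidases and sulfatases.

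Promoters of 4 members show the range of the promoter element among genes of unlike response. They are the 250 bases before the start in the RefSeq table for GRCm38.p6, the build that mm10 stands for, printed on the gene's own strand. Capitals mark the core CACGTG, a palindrome that reads the same on both strands. Ctsd (cathepsin D, chr7:142387828-142388077, minus strand) and Lamp1 (lysosome-associated membrane protein 1, chr8:13158911-13159160, plus strand) were higher in CKO and hold 2 and 4 cores. Ctss (cathepsin S, chr3:95526536-95526785, plus strand) had the largest fold change of the members and holds 0. Mcoln1 (the lysosomal calcium channel, chr8:3500269-3500518, plus strand) was not called and holds 2. The GENCODE M21 genes Ctsd and Mcoln1 start inside the printed bases.
Ctsd: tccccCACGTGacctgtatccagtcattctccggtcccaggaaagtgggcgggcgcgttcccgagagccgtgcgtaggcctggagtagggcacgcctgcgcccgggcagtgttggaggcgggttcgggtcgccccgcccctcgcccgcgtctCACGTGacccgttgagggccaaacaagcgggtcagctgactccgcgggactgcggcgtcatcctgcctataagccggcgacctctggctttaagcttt
Lamp1: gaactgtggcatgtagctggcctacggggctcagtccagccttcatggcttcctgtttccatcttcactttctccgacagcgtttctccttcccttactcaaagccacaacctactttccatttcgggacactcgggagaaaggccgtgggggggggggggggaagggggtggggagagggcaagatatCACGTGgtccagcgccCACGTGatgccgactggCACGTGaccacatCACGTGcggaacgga
Ctss: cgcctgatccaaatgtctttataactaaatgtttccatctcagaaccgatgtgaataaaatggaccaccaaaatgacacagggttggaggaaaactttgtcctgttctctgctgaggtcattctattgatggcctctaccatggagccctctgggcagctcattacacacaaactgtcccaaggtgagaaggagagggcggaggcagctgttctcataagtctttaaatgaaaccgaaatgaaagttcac
Mcoln1: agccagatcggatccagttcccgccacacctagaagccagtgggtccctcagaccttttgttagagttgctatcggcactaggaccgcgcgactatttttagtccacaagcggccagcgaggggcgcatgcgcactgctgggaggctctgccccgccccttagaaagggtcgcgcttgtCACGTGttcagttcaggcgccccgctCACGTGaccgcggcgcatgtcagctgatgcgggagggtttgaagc

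A window of 300 bases, 250 before the start and 50 after it, was present for 41 of the 47 members. The core CACGTG was in at least 1 window of 39% of these members, of 11.7% of the 9945 tested genes with a window and of 8.09% of all 27025 genes with one. By response, the core was in 36.8% of the 19 higher members with a window and in 40.9% of the 22 that were not called. The longer palindrome TCACGTGA, which contains the core, was in 17.1% of the members and in 2.18% of the tested genes. A match is one of letters only and says nothing of binding. Asah1, Atp6v1b2, Atp6v1h, Ctsb, Ctsh and Npc1 were not searched.

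Proteases had the highest share of called members. Of the 12 members of this role, 10 were higher in CKO, the median log2 fold change was 0.87, and in 8 the groups did not overlap. Of all genes tested, 8.7% were higher, and 4.09% lay wholly above WT. Their summed level was 2033 to 3845 FPKM in CKO and 1262 to 1638 FPKM in WT. The count was 10 of 12 without CKO replicates 1 and 5, where 5.33% of all genes tested were higher. Leaving out CKO replicates 2 and 3 gave 9 of 12, where 7.15% were higher.

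Ctsb, the cysteine protease cathepsin B (chromosome 14, 63122462 to 63145923, plus strand, GRCm38), was at 738, 429, 505, 508 and 822 FPKM in CKO replicates 1 to 5, against 228, 257 and 293 FPKM as the lowest, median and highest of the 7 WT libraries. All CKO libraries lay above all WT libraries, with replicates 1 and 5 highest (log2 fold change 1.17, SE 0.15, adjusted p = 0.000404, limma). The exons of Ctsb share 12.8% of their bases with those of Fdft1 on the other strand, and the use of strand in counting is not given in the sources used here. Ctsd, the aspartic protease cathepsin D (chromosome 7, 142375911 to 142388038, minus strand), was at 1559.6, 705, 973, 1046 and 1793 FPKM in CKO replicates 1 to 5, against 379, 499.9 and 539 FPKM as the lowest, median and highest of the 7 WT libraries. The groups did not overlap, CKO replicates 1 and 5 were again highest and replicate 2 lowest (log2 fold change 1.30, SE 0.20, adjusted p = 0.000998, limma). A same-strand gene of the GENCODE annotation, Gm49369, shares 34.4% of the exonic bases of Ctsd. That symbol has no values among the deposited genes, and whether any reads were divided between the genes cannot be told from them.

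Ctss, cathepsin S, is an endopeptidase of antigen-presenting cells that stays active at neutral pH (chromosome 3, 95526786 to 95556403, plus strand). It was at 308, 87.9, 69.6, 107 and 270.0 FPKM in CKO replicates 1 to 5, against 15.3, 29.2 and 43.8 FPKM as the lowest, median and highest of the 7 WT libraries. Here the CKO libraries fell into a pair at high and a trio at lower level, all above WT (log2 fold change 2.18, SE 0.36, adjusted p = 0.00142, limma). Without CKO replicates 1 and 5 its log2 fold change was 1.49 (adjusted p = 0.00603, limma). Ctsh, an aminopeptidase (chromosome 9, 90054152 to 90076089, plus strand), was at 67.2, 35.9, 51.4, 47.1 and 58.8 FPKM in CKO replicates 1 to 5, against 18.3, 24.1 and 35.1 FPKM as the lowest, median and highest of the 7 WT libraries. CKO replicate 2 lay just above the highest WT library, and the groups did not overlap (log2 fold change 1.01, SE 0.16, adjusted p = 0.0011, limma).

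Ctso, cathepsin O (chromosome 3, 81932601 to 81956725, plus strand), was at 31.3, 42.3, 42.0, 28.6 and 33.1 FPKM in CKO replicates 1 to 5, against 17.4, 21.1 and 23.5 FPKM as the lowest, median and highest of the 7 WT libraries. Its highest CKO libraries were replicates 2 and 3, not 1 and 5, and all lay above WT (log2 fold change 0.72, SE 0.12, adjusted p = 0.00126, limma). Tpp1, the tripeptidyl peptidase of neuronal ceroid lipofuscinosis (chromosome 7, 105744811 to 105752235, minus strand), was at 57.2, 64.1, 79.8, 58.4 and 63.7 FPKM in CKO replicates 1 to 5, against 39.4, 41.9 and 49.6 FPKM as the lowest, median and highest of the 7 WT libraries. The CKO libraries lay above WT with a narrow spread, replicate 3 highest (log2 fold change 0.56, SE 0.10, adjusted p = 0.00219, limma).

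The other called proteases were Ctsc, the dipeptidyl peptidase that activates granule proteases of immune cells (log2 fold change 0.93), Ctsa, the carboxypeptidase that protects lysosomal sialidase (0.90), Ctsz, a carboxypeptidase (0.83), and Ctsf, cathepsin F (0.53), with adjusted p between 0.0022 and 0.0419 by limma. Ctsf was called in 3 of the 12 fits that each left out 1 library, those without CKO replicate 1, CKO replicate 5 or the unnumbered WT library. Lgmn, the asparaginyl endopeptidase that processes cathepsins, had a log2 fold change of 0.84 and was not called (adjusted p = 0.0697, limma). Its CKO libraries lay between 97.2 and 127 FPKM, while WT libraries spread from 31.1 to 145 FPKM, and it was called without WT replicate 3, without WT replicate 7 and with a block by replicate number over the 8 libraries numbered 1 to 4 (adjusted p = 0.0398, limma).

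Ctsl, cathepsin L (chromosome 13, 64359337 to 64370890, minus strand), had the estimate nearest to 0 of all members. It was at 293, 301, 577, 224 and 290.3 FPKM in CKO replicates 1 to 5, against 233, 350.4 and 386 FPKM as the lowest, median and highest of the 7 WT libraries. CKO replicate 3 lay far above every other library and the other CKO libraries lay within the WT range or just below it, and the estimate was near 0 (log2 fold change 0.00, SE 0.20, adjusted p = 0.996, limma). The 95% interval of this log2 fold change ran from -0.43 to 0.43. Ctsl is induced in granulosa cells of preovulatory follicles, and 10 of 10 granulosa markers were lower in CKO, with a summed level of 1329 to 2476 FPKM in CKO and 3713 to 6621 FPKM in WT. Whether the granulosa share bears on Ctsl was not tested. A pseudogene and an antisense RNA share 6.09% and 26.8% of the exonic bases of Ctsl.

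**Figure D2:**
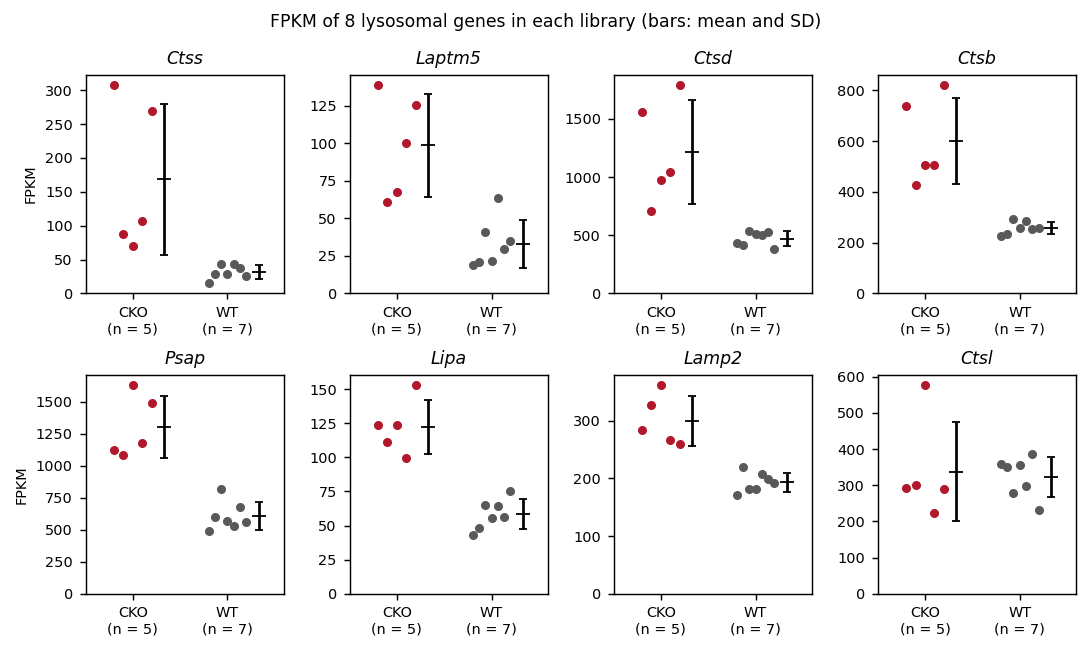
FPKM of 8 members in each library, CKO left and WT right of each panel, points in replicate order, with the mean and SD as bars beside them. The groups are apart in Ctss, Ctsd, Ctsb, Psap, Lipa and Lamp2, meet in Laptm5, where the highest WT library at 63.8 FPKM passes the lowest CKO library at 60.9 FPKM, and in Ctsl 1 CKO library stands at 577 FPKM while the other 4 lie within the WT range or just below it.

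Glycosidases and sulfatases, which strip sugars and sulfate groups from glycans and glycolipids, had the lowest share with all libraries. Of the 14 members, 2 were higher, 0 were lower and 12 were not called, with a median log2 fold change of 0.20. The share higher was 14.3%, near the 8.7% of all genes tested. Their summed level overlapped, with 334 to 465 FPKM in CKO and 344 to 400.1 FPKM in WT. The called members were Idua, the iduronidase of heparan and dermatan sulfate, at 11.0 ± 1.76 FPKM in CKO and 7.34 ± 1.00 FPKM in WT, and Arsa, the sulfatase of sulfatides, at 14.8 ± 2.81 FPKM in CKO and 10.4 ± 2.13 FPKM in WT (SD, n = 5 and 7). Their log2 fold changes were 0.52 and 0.47 (adjusted p = 0.0123 and 0.0439, limma). Arsa was called in 2 of the 12 fits without 1 library, those without CKO replicate 5 or the unnumbered WT library. Both genes overlap transcripts on the other strand. Leaving out CKO replicates 1 and 5 gave 4 of 14, where 5.33% of all genes tested were higher. This was a higher share than the V-ATPase then had, while the median log2 fold change was lower, 0.18 against 0.33 for the V-ATPase. Leaving out CKO replicates 2 and 3 gave 1 of 14, near the 7.15% of all genes tested. That gene was Hexa, at an adjusted p of 0.041 (limma), with Idua and Arsa not called (adjusted p = 0.0797 and 0.212, limma).

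Arsb, the sulfatase of dermatan sulfate (chromosome 13, 93771630 to 93943016, plus strand), was at 43.0, 156, 129, 102 and 61.2 FPKM in CKO replicates 1 to 5, against 68.1, 79.9 and 109 FPKM as the lowest, median and highest of the 7 WT libraries. CKO replicates 1 and 5 lay below every WT library and replicates 2 and 3 above every WT library, so that the means differed by less than the spread (log2 fold change 0.08, SE 0.26, adjusted p = 0.878, limma). It was called higher without CKO replicates 1 and 5, at a log2 fold change of 0.59 (adjusted p = 0.043, limma). Ids, the iduronate sulfatase, was likewise called there, at 0.32 (adjusted p = 0.047, limma), and not with all libraries, at 0.17.

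Galc, which cleaves galactosylceramide (chromosome 12, 98202294 to 98259459, minus strand), had the lowest estimate of all members. It was at 11.6, 14.3, 13.2, 14.6 and 18.4 FPKM in CKO replicates 1 to 5, against 13.4, 20.6 and 24.2 FPKM as the lowest, median and highest of the 7 WT libraries. CKO replicates 1 and 3 lay below the WT range and the other 3 within it (log2 fold change -0.41, SE 0.15, adjusted p = 0.0733, limma). Galc was called lower without CKO replicate 5 (adjusted p = 0.0438, limma) and without the unnumbered WT library (adjusted p = 0.0186, limma). Naglu and Sgsh, which act in heparan sulfate breakdown, also had estimates below 0, -0.23 and -0.16, and were not called. The other members, Gla, Gusb, Man2b1, Neu1, Hexa, Glb1 and Gaa, had estimates between 0.11 and 0.34. Of these, Gusb and Hexa reached an unadjusted p under 0.05.

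Among the proteins that handle lipids, with progranulin (Grn) listed beside them, 4 of 8 were higher and 0 lower. Of all genes tested, 8.7% were higher. Leaving out CKO replicates 1 and 5 gave 3 of 8, where 5.33% of all genes tested were higher. Leaving out CKO replicates 2 and 3 gave 4 of 8, where 7.15% were higher. Lipa, the acid lipase that frees cholesterol from cholesteryl esters (chromosome 19, 34492318 to 34527474, minus strand), was at 123, 112, 123, 99.7 and 153 FPKM in CKO replicates 1 to 5, against 43.0, 56.3 and 75.5 FPKM as the lowest, median and highest of the 7 WT libraries. Every CKO library was above every WT library (log2 fold change 1.06, SE 0.14, adjusted p = 0.000404, limma). Psap, prosaposin, the precursor of the saposins that present glycolipids to hydrolases (chromosome 10, 60277627 to 60302597, plus strand), was at 1127, 1088, 1630.0, 1175 and 1489 FPKM in CKO replicates 1 to 5, against 490.4, 567 and 815 FPKM as the lowest, median and highest of the 7 WT libraries. Replicates 3 and 5 were the highest CKO libraries, and the groups did not overlap (log2 fold change 1.10, SE 0.16, adjusted p = 0.000542, limma).

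Npc1, the membrane protein that exports cholesterol from the lysosome (chromosome 18, 12189692 to 12236400, minus strand), was at 18.1, 12.01, 16.0, 12.9 and 16.5 FPKM in CKO replicates 1 to 5, against 6.82, 9.23 and 9.95 FPKM as the lowest, median and highest of the 7 WT libraries. All CKO libraries lay above WT (log2 fold change 0.69, SE 0.12, adjusted p = 0.00219, limma). Npc2, the soluble partner that hands cholesterol to Npc1, was at 168 ± 54.8 FPKM in CKO and 199 ± 54.1 FPKM in WT (SD, n = 5 and 7), log2 fold change -0.24 (adjusted p = 0.53, limma). The difference between these 2 genes was not tested. Grn, progranulin, was called at a log2 fold change of 0.62 (adjusted p = 0.0115, limma), and lost the call without CKO replicates 1 and 5 (adjusted p = 0.055, limma).

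Smpd1, the acid sphingomyelinase (chromosome 7, 105554360 to 105558389, plus strand), was at 30.6, 34.7, 39.0, 33.5 and 29.3 FPKM in CKO replicates 1 to 5, against 30.0, 34.3 and 39.2 FPKM as the lowest, median and highest of the 7 WT libraries. The groups covered the same range (log2 fold change -0.02, SE 0.10, adjusted p = 0.915, limma, 95% interval -0.23 to 0.19). Asah1, the acid ceramidase, had an estimate of 0.12 and Gm2a, the activator of ganglioside breakdown, of -0.39, neither called. Gm2a ranged from 168 to 498 FPKM in CKO, lowest in replicate 1, and from 245 to 962 FPKM in WT.

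Of the 7 membrane proteins, 4 were higher and 0 lower, where 8.7% of all genes tested were higher and 7.59% lower. Lamp2, a main glycoprotein of the lysosomal membrane and the receptor of chaperone-mediated autophagy (chromosome X, 38401357 to 38456454, minus strand), was at 284, 328, 362, 267 and 259 FPKM in CKO replicates 1 to 5, against 171, 192 and 219 FPKM as the lowest, median and highest of the 7 WT libraries. Replicate 3 was highest and replicates 1 and 5 were among the 3 lowest CKO libraries, all above WT (log2 fold change 0.63, SE 0.11, adjusted p = 0.00163, limma). Lamp1 (chromosome 8, 13159161 to 13175338, plus strand), its close relative, whose promoter with 4 cores is printed above, was at 434, 362, 524, 413 and 514 FPKM in CKO replicates 1 to 5, against 259, 346 and 364 FPKM as the lowest, median and highest of the 7 WT libraries. CKO replicate 2 lay just below the highest WT library (log2 fold change 0.43, SE 0.12, adjusted p = 0.027, limma). Lamp1 was not called without CKO replicate 3 (adjusted p = 0.0755, limma) or without CKO replicate 5 (adjusted p = 0.0719, limma), and shares 9.31% of its exonic bases with Grtp1 on the other strand.

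Laptm5, a lysosomal protein of blood cell lineages (chromosome 4, 130913125 to 130936141, plus strand), was at 139, 60.9, 67.2, 99.8 and 126 FPKM in CKO replicates 1 to 5, against 18.6, 29.5 and 63.8 FPKM as the lowest, median and highest of the 7 WT libraries. WT replicate 6, the WT library with the highest macrophage sum, lay inside the CKO range (log2 fold change 1.59, SE 0.29, adjusted p = 0.0023, limma). Cd63, a tetraspanin of late endosomes and lysosomes, had a log2 fold change of 0.77 (adjusted p = 0.00808, limma), with 41.0 ± 9.06 FPKM in CKO and 23.8 ± 5.61 FPKM in WT (SD, n = 5 and 7). Without CKO replicates 1 and 5, Lamp2 and Laptm5 were still called, and Lamp1 and Cd63 were not. In that fit 5.33% of all genes tested were higher. Scarb2, which carries glucocerebrosidase to lysosomes, Mcoln1 and Cln3, the protein of juvenile ceroid lipofuscinosis, were not called, with estimates of 0.40, 0.29 and -0.11. Mcoln1 and Cln3 were at most 4.97 and 5.46 FPKM in any library, so their values rest on few fragments.

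Of the 6 members of the V-ATPase, 3 were higher and 0 lower, all estimates were above 0, and the median log2 fold change was 0.38. Of all genes tested, 8.7% were higher. Atp6v1b2, the B2 subunit of the catalytic ring in V1, had 85.4, 69.8, 74.8, 64.7 and 94.4 FPKM in CKO replicates 1 to 5, against 43.2, 56.2 and 60.9 FPKM as the lowest, median and highest of the 7 WT libraries. The groups did not overlap (log2 fold change 0.51, SE 0.11, adjusted p = 0.00749, limma). Atp6v0d1, which links the membrane ring to the central stalk, and Atp6v1a, the catalytic subunit, were called at log2 fold changes of 0.51 and 0.33 (adjusted p = 0.021 and 0.0371, limma). Atp6v0d1 was not called without CKO replicate 1 (adjusted p = 0.0562, limma). Atp6v1a was called in 5 of the 12 fits without 1 library and lost without CKO replicate 3 or 5 or WT replicate 1, 3, 4, 6 or the unnumbered one. Atp6v1h, Atp6ap1 and Atp6v0c, the proton-binding ring, had estimates of 0.43, 0.25 and 0.13 and were not called. Without CKO replicates 1 and 5, 0 of the 6 were called, with a median of 0.33, where 5.33% of all genes tested were higher. Without CKO replicates 2 and 3, 2 of the 6 were called, where 7.15% were higher.

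**Figure D3:**
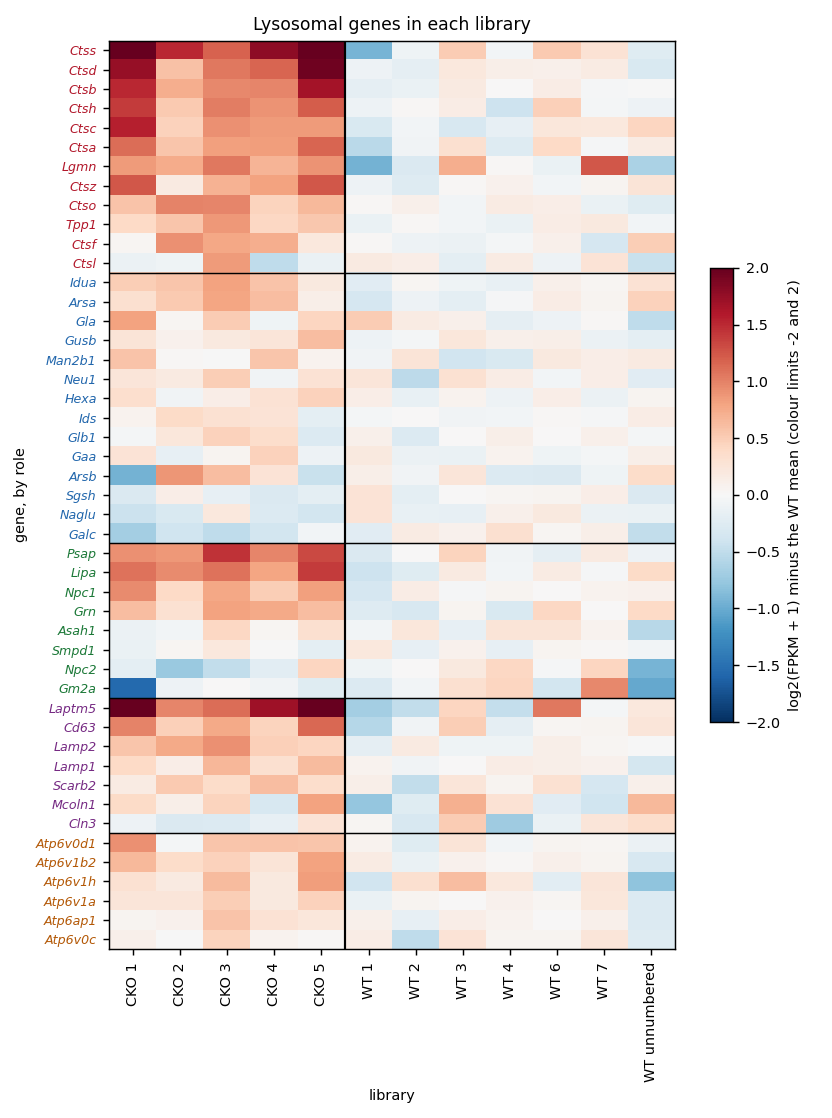
Log2(FPKM + 1) of each member in each library minus the mean of the WT libraries, with CKO libraries left of the black line and WT libraries right of it, rows grouped by role. Colours end at -2 and 2. Ctss, Ctsd, Ctsb and Laptm5 are darkest in CKO replicates 1 and 5, most cathepsins, Psap, Lipa and Lamp2 are red in all 5 CKO libraries, and the glycosidases and sulfatases are mostly pale, with the strongest colours in Arsb, which is blue in CKO replicates 1 and 5 and red in 2 and 3.

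The members did not all follow the same CKO libraries. The highest CKO library was replicate 3 for 18 members, replicate 5 for 13, replicate 1 for 9, replicate 2 for 5 and replicate 4 for 2. Replicates 1 and 5 were the 2 highest for 15 members and the 2 lowest for 10. The mean of replicates 1 and 5 over that of replicates 2, 3 and 4 was at least 1.5 for 7 members, with 3.28 for Ctss, 1.85 for Ctsd, 1.74 for Laptm5 and 1.62 for Ctsb, beside 1.78 for the macrophage sum. It was at most 0.75 for 5 members, Arsb at 0.404, Gm2a at 0.613, Ctsf at 0.618, Glb1 at 0.691 and Arsa at 0.729. Ctss, Laptm5 and Ctsd were thus highest in the CKO libraries with the highest macrophage sums, while Ctsf and Arsb were lowest in them. These ratios were chosen after the macrophage sums were seen and carry no test.

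**Figure D4:**
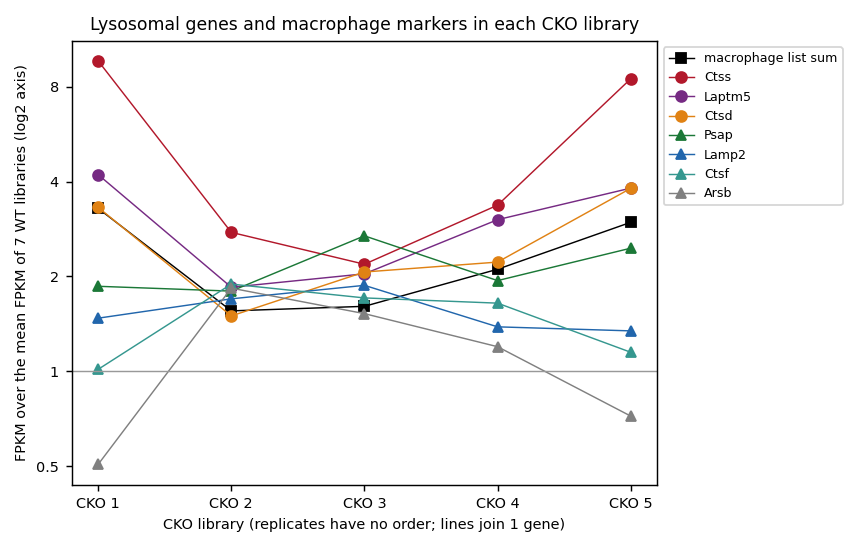
FPKM of 7 members and of the summed macrophage list in each CKO library, divided by the mean of the 7 WT libraries, on a log2 axis. Lines join the values of 1 gene and imply no order of the replicates. Ctss is at 9.67 and 8.48 times the WT mean in replicates 1 and 5, Psap lies between 1.80 and 2.69 in all 5, and Arsb lies below 1 in replicates 1 and 5.

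Other lysosomal genes, from lists drawn up for this comparison, gave shares of 25% for hydrolases, 40% for membrane proteins and 14.3% for V-ATPase subunits, where 8.7% of all genes tested were higher. Of 28 other hydrolases and cofactors tested, 7 were higher and 0 lower, with a median log2 fold change of 0.27. Pla2g15, the lysosomal phospholipase A2, was at 46.3, 61.7, 65.2, 43.6 and 49.0 FPKM in CKO replicates 1 to 5, against 22.6, 32.9 and 39.2 FPKM as the lowest, median and highest of the 7 WT libraries. The groups did not overlap, at a log2 fold change of 0.70 (adjusted p = 0.00395, limma). Lyz2, the lysozyme of myeloid cells, was at 2248, 683, 634, 829 and 2670.5 FPKM in CKO replicates 1 to 5 and at most 517 FPKM in WT, highest in CKO replicates 1 and 5 (log2 fold change 1.93, adjusted p = 0.00343, limma).

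Of 20 other membrane proteins tested, 8 were higher and 0 lower, and the 3 with the smallest p are genes of phagocytes. Gpnmb, a glycoprotein of macrophage lysosomes and melanosomes, was at 159, 45.7, 41.1, 51.6 and 187 FPKM in CKO replicates 1 to 5 and at most 21.2 FPKM in WT. Slc11a1, a metal transporter of the phagosome, changed by 1.81 and Cd68, a glycoprotein of macrophage lysosomes, by 1.95 on the log2 scale, and Gpnmb by 2.86 (adjusted p = 0.00133, 0.002 and 0.000873, limma). All 3 were highest in CKO replicates 1 and 5. Without those replicates, 5 of the 28 hydrolases and 7 of the 20 membrane proteins were called higher, where 5.33% of all genes tested were. Of 14 other V-ATPase subunits tested, 2 were higher and 0 lower, a share near that of all genes tested. Atp6v0d2, the d2 subunit known from osteoclasts and macrophages, was at 80.4, 32.9, 25.6, 27.8 and 93.9 FPKM in CKO replicates 1 to 5, against 2.92, 6.18 and 12.7 FPKM as the lowest, median and highest of the 7 WT libraries. Its log2 fold change of 2.64 (adjusted p = 0.000434, limma) was the largest of the pump, beside 0.51 for the d1 subunit. Atp6v1c1 changed by 0.37 (adjusted p = 0.0397, limma) and was called in 5 of the 12 fits without 1 library. Atp6v1f was at 0.38 and not called. Atp6v0e2 went the other way, at 73.0 to 279 FPKM in CKO and 158 to 466 FPKM in WT, and was not called. At an unadjusted p under 0.05, 5 of the 14 were higher and 1 lower, where 15.5% of all genes tested were higher and 14.7% lower.

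Genes that tag and sort hydrolases by mannose 6-phosphate were not called in either direction. By limma 0 of 16 were higher and 0 lower, and the exact permutation test gave 0. At an unadjusted p under 0.05, 6 of the 16 were higher and 0 lower, where 15.5% of all genes tested were higher and 14.7% lower. Estimates were above 0 for 12 of the 16, with a median log2 fold change of 0.18. Vps35, Ap3d1 and Ap1b1, which work in retromer and the adaptor complexes, had the smallest p, with adjusted p of 0.0658, 0.105 and 0.139 and log2 fold changes of 0.34, 0.24 and 0.26. Without CKO replicates 2 and 3, 2 of the 16 were higher, where 7.15% of all genes tested were higher. Of 12 MiT/TFE factors and their regulators, 7 were higher and 0 lower, where 8.7% of all genes tested were higher and 7.59% lower. The median log2 fold change of the list was 0.46. Flcn, folliculin, which acts with Fnip1 or Fnip2 on the Rag GTPases at the lysosome, was at 22.4, 18.4, 17.9, 17.6 and 20.5 FPKM in CKO replicates 1 to 5, against 8.50, 11.0 and 13.6 FPKM as the lowest, median and highest of the 7 WT libraries. The groups did not overlap (log2 fold change 0.77, SE 0.11, adjusted p = 0.00067, limma). Fnip2 and Fnip1 changed by 0.89 and 0.61 on the log2 scale (adjusted p = 0.00213 and 0.00767, limma). Tfec, Tfe3, Mitf and Rragc were also called, in 12, 8, 5 and 2 of the 12 fits without 1 library, and Tfeb, at 0.49, was not (adjusted p = 0.114, limma). Tfec was listed at 0 in 3 of the 7 WT libraries and was highest in CKO replicates 1 and 5, at 5.20 and 4.50 FPKM. Its values thus rest on few fragments. Without CKO replicates 1 and 5, 2 of the 12 were called, Flcn and Fnip2, where 5.33% of all genes tested were higher. Without CKO replicates 2 and 3, 4 of the 12 were called, where 7.15% were higher.

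In the autophagy list, 2 of 18 genes were higher and 0 lower, which is 11.1%, near the 8.7% of all genes tested. Estimates were above 0 for 14 of the 18, with a median log2 fold change of 0.16. At an unadjusted p under 0.05 (limma), 6 of the 18 were higher and 0 lower, where 15.5% of all genes tested were higher and 14.7% lower. The summed level of the list was 1997 to 2451 FPKM in CKO and 1549 to 1924 FPKM in WT. The called genes were Gabarap and Gabarapl1, ubiquitin-like proteins that are lipidated onto autophagosomes, at log2 fold changes of 0.52 and 0.51 (adjusted p = 0.00324 and 0.00401, limma), and in both the groups did not overlap. Atg7, the activating enzyme of that lipidation, was at 0.46 and not called (adjusted p = 0.0552, limma). Of 5 cystatins tested, which inhibit cysteine cathepsins, Cstb (0.76) and Cst3 (0.41) were higher (adjusted p = 0.00602 and 0.0379, limma) and 0 were lower, and Cst3 was called in 5 of the 12 fits without 1 library. Cst8 was at -1.59 and not called.

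Markers of other ovarian cells bear on the makeup of the samples. Mast cell markers were higher in 5 of 7, with a summed level of 92.4 to 293 FPKM in CKO and 24.4 to 43.0 FPKM in WT. Fcer1a, a chain of their IgE receptor, was at 34.9, 9.81, 13.9, 14.4 and 16.3 FPKM in CKO replicates 1 to 5 and listed at 0 in 5 of the 7 WT libraries, and Cpa3, their carboxypeptidase, was at 23.1, 6.03, 6.92, 11.2 and 10.6 FPKM in CKO replicates 1 to 5 and at most 1.56 FPKM in WT. Among macrophage markers, Mrc1 and Mpeg1 had the smallest p, at log2 fold changes of 0.92 and 1.36 (adjusted p = 0.00156 and 0.00345, limma). All 10 granulosa markers were lower, led by Nr5a2 and Fst at -2.27 and -2.76 (adjusted p = 0.000281 and 0.000365, limma). Of 8 oocyte markers tested, 5 were lower, led by Mos and Zar1 at -2.17 and -3.40 (adjusted p = 0.000592 and 0.000625, limma), with a summed level of 10.8 to 63.1 FPKM in CKO and 62.5 to 231 FPKM in WT. The estimates of all 8 were below 0, but the list was not uniform. Nlrp5 was at 9.50 ± 5.22 FPKM in CKO and 9.25 ± 3.79 FPKM in WT (SD, n = 5 and 7). Zp1 and Zp2, too low to be tested, averaged 1.02 and 0.839 FPKM in CKO and 1.07 and 0.560 FPKM in WT. At an adjusted p under 0.05, 0 of 6 theca markers and 0 of 4 red blood cell genes were called, and 1 of each list at an unadjusted p under 0.05, with Ptch1 and Cyp17a1 at -0.83 and -1.70 and Hbb-bt and Hba-a1 at 1.85 and 1.41. Hba-a1 and Hba-a2 traded places between libraries, at 0.0122 and 90.9 FPKM in WT replicate 1 and at 21.7 and 0.0631 FPKM in WT replicate 7. The estimate of Hba-a1 alone is therefore uncertain. Of 6 luteal markers Parm1 was lower, at -1.67, and Hsd17b7 was not called, at -1.66. The part of these cell types in the lysosomal values was not tested.

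The authors' deposited table gave 21 members higher in CKO and 1 lower, Galc, at a q-value under 0.05, where 4.44% of its 24255 genes were higher and 3.64% lower. Those shares count all 24255 genes, also ones not expressed, where each library had 14945 to 16083 genes above 0. They are thus not on the same footing as shares of the 13168 genes tested here. Of the members called by the authors, 20 were also called higher here, and Lgmn and Galc were called in the authors' deposited table alone. That table lists Galc at a log2 fold change of -0.44 and a q-value of 0.0415, and Lgmn at 0.68 and 0.00158. The exact permutation test over libraries, adjusted over all genes tested, gave 19 members higher and 0 lower, where 6.01% of all genes tested were higher and 5.45% lower.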

How the data were processed

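RNA sequencing values of 12 libraries of whole ovaries (5 CKO, 7 WT) came from a table of the whole series. Per the submitters' processing notes the reads were aligned to mm10 with TopHat2 2.0.13, FPKM were computed by the authors with Cufflinks 2.2.1, and the groups were compared with Cuffdiff. Which annotation was used, and whether strand was used, is not given in the sources used here. A deposited log2 fold change comes from the authors' own comparison, as do the deposited q-value and p-value, and in 99.9% of 13045 genes that fold change is that of CKO over WT to within 0.01, although its header gives the other order.

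Columns were matched to samples by the names in the labels. The name of 1 WT column matches the title of a WT sample and the description of another, so that column entered as the unnumbered WT library. No pair of libraries was a duplicate (highest correlation 0.971). FPKM are not counts and depth is not given. In 87.4% of 2437 low genes the values were whole multiples of the smallest, within 0.1, which gave relative depths of 0.752 to 1.64. Values of 0 may stand for failed estimates, since 12 of 80 ribosomal protein genes are at 0 in every library.

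Values were tested as log2(FPKM + 1) with R 4.3.3 and limma 3.58.1 (two-sided, empirical Bayes with a trend, genotype as the sole term), over 13168 genes with at least 1 FPKM in at least 5 libraries, with p adjusted by Benjamini and Hochberg's method and called under 0.05, after the fit had been tested on simulated data. With the pseudocount of 1, changes of low genes are understated. The members, the gene lists and the rules were chosen with earlier results of these data known. All members are accounted for. Values per library are given for the 10 called members with the smallest p, for the 3 with the smallest change and for some others chosen after their values were seen (Galc, Lamp1, Laptm5, Atp6v1b2). The 3 genes with the smallest p of each pathway list and the 2 of each marker list are named, apart from 1 gene that is not reported here, and those named beyond this were chosen after their values were seen. Positions and overlaps are from GENCODE M21 on GRCm38, promoters from RefSeq on GRCm38.p6. Alternatives were other pseudocounts, filters and scalings, sample weights, an exact permutation test, each library left out, CKO replicates 1 and 5 left out and a replicate block. Fits of the same 8 libraries without the block, and without CKO replicates 2 and 3, were added after seeing the data.

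The titles of both genotypes share replicate numbers 1 to 4. Deviations from the group means correlated at -0.03, 0.09, 0.04 and -0.07 between same-numbered libraries, so the numbers were not taken to pair them.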

Additional observations from a re-analysis of the deposited data

Results flagged for a closer look

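For each member and genotype, the highest and the lowest library were compared with the rest of the group by Dixon's ratio. Of 94 groups of values, 9 held a library past the 95% critical value, and chance flags about 1 in 20. Of the 9, 3 were the highest value in CKO replicate 3, namely Ctsl at 577 FPKM, Naglu at 92.7 FPKM and Atp6v0c at 50.9 FPKM. In CKO replicate 5, Gusb at 51.0 FPKM and Cln3 at 4.54 FPKM were the highest values. Sgsh was highest in CKO replicate 2, at 16.4 FPKM, and Gm2a was lowest in CKO replicate 1, at 168 FPKM. Among WT libraries, Ids was highest in the unnumbered library, at 26.7 FPKM, and Npc1 was lowest in replicate 1, at 6.82 FPKM. Npc1 is the only one of these genes that was called higher in CKO.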

How the results depend on the processing

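The direction of the members' counts held under all 24 alternatives, with 17 to 23 members higher in CKO. Leaving out each library gave 19 to 22 members higher, fewest without CKO replicate 3, and 0 to 1 lower. Over all genes tested, these fits gave 893 to 1200 genes higher and 737 to 1106 lower. The count of members lower was 1, Galc, with sample weights, with the replicate block and in the same 8 libraries without a block. The block by shared replicate number, over the 8 libraries numbered 1 to 4, gave 17 members higher, 756 genes higher and 622 lower, where the same 8 libraries without a block gave 19, 901 and 707. Without CKO replicates 1 and 5, 702 genes were higher, 5.33% of those tested.

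Of 23 called members, 13 kept the call in every alternative and none changed sign. The others lost it in at least 1, and those are Ctsf, Idua, Arsa, Npc1, Grn, Lamp1, Cd63, Atp6v0d1, Atp6v1a and Atp6v1b2. In the 8 numbered libraries without a block, Lamp1, Atp6v0d1, Atp6v1a and Atp6v1b2 lost it (adjusted p from 0.0636 to 0.160, limma). With the replicate block these 4 and also Ctsf, Npc1 and Cd63 lost it, at adjusted p from 0.0540 to 0.176 (limma), and Lgmn was called. Signs changed only in members that were not called. Ctsl gave -0.000501 with median ratio scaling, -0.0432 with sample weights, -0.0324 with and without the block in the 8 libraries, and -0.21 to 0.13 with 1 library left out. Smpd1 gave 0.0771 without CKO replicates 1 and 5, 0.0299 with and without the block, and -0.0764 to 0.024 with 1 library left out, and Arsb -0.12 to 0.33. Without CKO replicates 2 and 3, Ctsl gave -0.25, Arsb -0.37, Npc2 0.00774 and Cln3 0.00643. The causes were not tested. Scaling moved the median of all genes tested by less than 0.1 on the log2 scale, and values of a few FPKM rest on few fragments.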
